A study of Mus musculus with 26 samples.

Results

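The cyclin-dependent kinase inhibitor genes were followed through sequential chromatin immunoprecipitation (ChIP-reChIP) of mouse embryonic stem cells. The 6 genes were Cdkn2a, Cdkn2b, Cdkn2c and Cdkn2d of the Ink4 family and Cdkn1a and Cdkn1b of the Cip family, out of 26180 RefSeq genes with a start site. A region was taken for a gene when it overlapped 1.5 kb either side of one of the gene's start sites, and the region with the largest overlap was kept for each gene and table. This gave 57 regions of 338442 over 12 tables, one table for each cell line and ChIP.

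Chromatin from pellets of formaldehyde-fixed cells was digested with MNase and precipitated for H3K4me3, a mark of active promoters, or for H3K27me3, the mark laid down by Polycomb repressive complexes. Part of each eluate was kept as the total H3K4me3 or total H3K27me3 library, and the rest was precipitated again with the opposite antibody, giving the K4-K27 reChIP (H3K4me3 first) and the K27-K4 reChIP (H3K27me3 first), which enrich nucleosomes that carry both marks. Wild-type E14 cells gave 2 replicates of each ChIP, sequenced in batches A and B. A second set held the wild-type (WT) clones 57 and 58 and the Dppa2/4 double knockout (DKO) clones 43 and 53, all sequenced in batch C. DPPA2 and DPPA4 are epigenetic priming factors, and each clone is a single line, so that a WT and a DKO group hold 2 clones each. All cells carried the E14 background, grew without feeders in serum and LIF and received no treatment. IgG-IgG libraries, which give the background of the sequential procedure, came from 1 E14 replicate and from WT clone 57. The line (E14 or clone) and the sequencing batch cannot be told apart.

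The inhibitors encoded by these genes hold the cell in G1. Ink4 proteins bind CDK4 and CDK6 and keep them from pairing with D-type cyclins, whereas Cip proteins bind cyclin-CDK complexes more broadly, CDK2 included. In many somatic cells Polycomb complexes silence the Ink4 locus, and embryonic stem cells, which cycle with a short G1, are known for low levels of several of these inhibitors.

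The 26 libraries held 6741244 to 47903462 reads, the lowest and the highest being replicates 1 and 2 of the E14 K27-K4 reChIP. Values are log2 of RPM (reads scaled to library size) per kb of region, so that genes can be compared per length. In the regions of the E14 total H3K4me3 table, the values of the 6 genes rested on 17 to 309 reads in total H3K27me3, 26 to 1006 in total H3K4me3, 42 to 1557 in K4-K27, 55 to 4260 in K27-K4 and 8 to 97 in IgG-IgG. Total H3K4me3 exceeded total H3K27me3 at the promoters of 5 of 6 embryonic stem cell markers in E14, WT and DKO cells (limma, Benjamini-Hochberg adjusted), Esrrb being the exception, and at 0 of the 3 fibroblast markers with a region (Col1a1, Col1a2 and Thy1). Of all 36235 regions in that fit, 31.2% were called higher in E14, 36.0% in WT and 32.7% in DKO. Total H3K4me3 at the Dppa2 and Dppa4 promoters differed between DKO and WT clones by 0.37 and 0.09 on the log2 scale (limma, adjusted p of 1.00 for both), and a promoter value does not check a deletion elsewhere in a gene. In chromatin from many cells, fewer cells with a mark and less of the mark per cell cannot be told apart.

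All 6 genes had a region in the total H3K4me3 and K4-K27 tables of all 3 lines and in the E14 K27-K4 table. The E14 K4-K27 and K27-K4 tables held the same region, to the base, at each of the 6 genes, as they did for 21857 of their 24540 and 36235 regions, so that the pair of listings is not independent. The K27-K4 tables of the clones each lacked 1 gene, Cdkn1b in WT and Cdkn2d in DKO. The total H3K27me3 tables listed fewer: Cdkn2a and Cdkn1b in E14, Cdkn2a and Cdkn2c in WT, and Cdkn2a alone in DKO. In E14 the Cdkn1b region overlapped its promoter window by only 100 bp, and the Cdkn2a region flanked the p19Arf start, with 832 bp of overlap. Absence from a table means that no region was listed there and not that the mark was missing.

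The promoters of Cdkn2a and Cdkn2c, highest in the reChIPs of the E14 total H3K4me3 regions, of Cdkn2d, lowest there, and of Cdkn1a, as a Cip gene, are given here as RefSeq holds them for GRCm38.p6, from 250 bases before to 50 bases after the start, 5′ to 3′ on the gene's strand, with each CG pair in capitals. They are the p19Arf start (chr4:89294570-89294869, minus strand) and the p16Ink4a start of Cdkn2a (chr4:89282143-89282442, minus strand), the upstream start of Cdkn2c (chr4:109666707-109667006, minus strand), the start of Cdkn2d (chr9:21291160-21291459, minus strand) and the downstream start of Cdkn1a (chr17:29093519-29093818, plus strand).

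Cdkn2a p19Arf: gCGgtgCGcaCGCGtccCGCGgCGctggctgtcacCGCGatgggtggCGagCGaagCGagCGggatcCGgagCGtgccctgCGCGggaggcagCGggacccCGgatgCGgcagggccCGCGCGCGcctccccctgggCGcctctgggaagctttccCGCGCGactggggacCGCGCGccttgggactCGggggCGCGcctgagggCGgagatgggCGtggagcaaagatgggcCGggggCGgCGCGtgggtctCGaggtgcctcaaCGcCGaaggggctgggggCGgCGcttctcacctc

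Cdkn2a p16Ink4a: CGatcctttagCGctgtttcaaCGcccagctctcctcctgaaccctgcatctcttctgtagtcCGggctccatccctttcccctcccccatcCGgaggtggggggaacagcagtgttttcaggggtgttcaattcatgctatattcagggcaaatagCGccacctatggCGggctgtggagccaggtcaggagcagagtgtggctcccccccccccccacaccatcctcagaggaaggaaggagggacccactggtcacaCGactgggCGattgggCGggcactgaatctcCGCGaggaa

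Cdkn2c: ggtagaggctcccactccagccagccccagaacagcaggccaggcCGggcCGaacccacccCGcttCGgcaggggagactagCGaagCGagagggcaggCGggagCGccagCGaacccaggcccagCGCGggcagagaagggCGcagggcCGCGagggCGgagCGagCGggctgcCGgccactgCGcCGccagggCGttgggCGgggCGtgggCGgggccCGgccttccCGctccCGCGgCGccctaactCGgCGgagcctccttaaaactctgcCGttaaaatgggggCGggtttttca

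Cdkn2d: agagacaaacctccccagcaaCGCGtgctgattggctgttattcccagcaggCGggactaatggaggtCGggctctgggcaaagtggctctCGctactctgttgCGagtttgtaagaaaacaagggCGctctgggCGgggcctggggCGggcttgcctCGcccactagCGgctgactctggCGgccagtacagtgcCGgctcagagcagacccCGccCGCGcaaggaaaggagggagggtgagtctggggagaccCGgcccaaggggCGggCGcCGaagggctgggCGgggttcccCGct

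Cdkn1a: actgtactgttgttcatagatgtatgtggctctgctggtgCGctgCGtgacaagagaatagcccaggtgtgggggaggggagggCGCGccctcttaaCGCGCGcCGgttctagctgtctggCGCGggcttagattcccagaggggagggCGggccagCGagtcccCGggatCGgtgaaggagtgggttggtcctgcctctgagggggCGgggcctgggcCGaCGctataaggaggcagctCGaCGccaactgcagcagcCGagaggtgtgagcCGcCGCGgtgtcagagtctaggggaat

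The p19Arf promoter held 45 CG pairs in its 300 bases, a number reached by 1.93% of 32851 mouse promoters, against a median of 7. The upstream Cdkn2c promoter held 33, reached by 8.56%, Cdkn1b 30, the downstream Cdkn1a promoter 23, Cdkn2d 22 and Cdkn2b 18. The p16Ink4a promoter held 12, reached by 39.6%, the downstream Cdkn2c promoter 8 and the upstream Cdkn1a promoter 2. The GC box GGGCGG, searched on both strands, occurred 5 times in the Cdkn2d promoter, 4 times in the upstream Cdkn2c promoter, 3 times at p19Arf, 2 times in the downstream Cdkn1a promoter and 1 time each at p16Ink4a, Cdkn2b and Cdkn1b, and 35.7% of all promoters held at least 1. Cdkn2d, the gene with the lowest mean in both reChIPs of every line in the E14 total H3K4me3 regions, held the most GC boxes, and its CG count lay between those of p16Ink4a and Cdkn2c.

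Values in the next paragraphs come from the regions of the E14 total H3K4me3 table, which lists all 6 genes. In these regions the genes differed less in total H3K4me3 than in total H3K27me3 and in the reChIPs. The gene means of total H3K4me3 spanned 0.78 on the log2 scale in E14, 0.53 in WT and 0.46 in DKO cells, whereas those of K27-K4 spanned 2.75, 4.47 and 3.55. In the wider E14 K27-K4 regions, total H3K4me3 spanned 1.54, 1.91 and 1.93, with Cdkn2b lowest in every line.

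Cdkn2a lies on chromosome 4, and its region (chr4:89293951-89296350) covered the start of p19Arf, which stabilises p53 by binding MDM2. A predicted gene, Gm12610, starts inside it, and signal of the pair cannot be told apart. Total H3K4me3 was 1.26 and 1.15 in the E14 replicates, 3.19 and 1.95 in WT clones 57 and 58, and 2.70 and 2.65 in DKO clones 43 and 53. Total H3K27me3 was 0.76 and 0.25 in E14, 1.72 and 0.98 in WT and 1.24 in both DKO clones. Its mean was the highest of the 6 genes in E14 and WT and the second highest in DKO, and 93.6% of the 21970 regions of that table were lower in E14. The K4-K27 values were 2.99 and 3.77 in E14, 4.76 and 3.79 in WT and 4.32 and 3.02 in DKO. The K27-K4 values were 3.13 and 4.85 in E14, 4.73 and 3.8 in WT and 3.42 and 3.21 in DKO. Both reChIPs stood well above IgG-IgG, which was -0.01 in E14 and 0.79 in WT clone 57.

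Cdkn2c, which encodes p18Ink4c, had a region on the same chromosome (chr4:109664701-109667550) covering both of its start sites. Total H3K4me3 was 1.20 and 1.67 in E14, 3.70 and 2.12 in WT and 3.00 and 2.86 in DKO. Total H3K27me3 was -0.00 and -0.46 in E14, 1.18 and 0.70 in WT and 1.23 and 1.43 in DKO. It was higher in all 4 clones than in both E14 replicates. K4-K27 was 2.98 and 3.99 in E14, 4.95 and 4.22 in WT and 4.63 and 3.71 in DKO. K27-K4 was 3.42 and 4.96 in E14, 4.57 and 3.64 in WT and 3.84 and 3.44 in DKO. Cdkn2c and Cdkn2a shared the top of the reChIP order in every line in these regions. Their K27-K4 values overlapped between libraries in E14 and WT and not in DKO, where Cdkn2c was higher by 0.32 on average.

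Cdkn2b, which encodes p15Ink4b, a mediator of growth arrest by TGF-beta, had a narrow region (chr4:89309851-89311350). Total H3K4me3 was 0.34 and 1.52 in E14, 3.18 and 2.13 in WT and 2.77 and 2.20 in DKO. Total H3K27me3 was -0.12 and -0.41 in E14, 0.26 and -0.23 in WT and -0.02 and -0.14 in DKO. The H3K27me3 level thus lay between those of Cdkn2a and Cdkn2d in every line. K4-K27 was 1.49 and 2.99 in E14, 3.47 and 2.98 in WT and 2.86 and 2.66 in DKO, and K27-K4 was 2.44 and 3.55, 2.69 and 1.51, and 2.43 and 1.86.

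Cdkn2d, which encodes p19Ink4d and is regulated in the cell cycle, stood apart from the other Ink4 genes. Its region (chr9:21286201-21291300) also holds the start of Kri1, and the signal of the pair cannot be told apart in it or in the E14 reChIP regions. Total H3K4me3 was 0.98 and 1.58 in E14, 2.93 and 1.84 in WT and 2.79 and 2.33 in DKO, close to the other genes. Total H3K27me3 was -1.58 and -1.88 in E14, -1.27 and -1.85 in WT and -1.84 and -1.45 in DKO. It was the lowest gene mean of the 6 in each line, and only 33.2% of regions were lower in E14. K4-K27 was 0.01 and 1.37 in E14, 2.50 and 1.77 in WT and 2.76 and 2.22 in DKO. K27-K4 was 0.94 and 1.94 in E14, -0.45 and 0.05 in WT and -0.04 and 0.22 in DKO. In the clones these K27-K4 values did not exceed the IgG-IgG value of 0.23 in WT clone 57, and in both E14 replicates they exceeded that of E14, which was -0.13. The same table lists a second region beside it (chr9:21291301-21292500), upstream of the Cdkn2d start, in which no other gene starts. There Cdkn2d was the lowest of the 6 genes in all 12 reChIP libraries, on 3 to 91 reads, and in all 6 total H3K27me3 libraries, on 0 to 9 reads. Its K4-K27 means there were -0.60 in E14, 0.62 in WT and 1.77 in DKO, and those of K27-K4 were 0.32, -1.51 and -1.13.

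Cdkn1a encodes p21, a target of p53, and its region (chr17:29092201-29097300) covered the downstream start site. Total H3K4me3 was 1.44 and 1.57 in E14, 3.33 and 1.91 in WT and 2.82 and 2.42 in DKO. Total H3K27me3 was -1.39 and -1.70 in E14, 0.60 and 0.21 in WT and 0.25 and 0.84 in DKO. No E14 value reached that of any clone. K4-K27 was 0.60 and 1.80 in E14, 3.83 and 3.25 in WT and 3.51 and 2.54 in DKO, again with every clone above both E14 replicates. K27-K4 was 1.72 and 3.26 in E14, 3.44 and 2.63 in WT and 2.77 in both DKO clones, and here the lines overlapped.

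Cdkn1b encodes p27, a brake on CDK2, with a region at chr6:134919151-134923050. Total H3K4me3 was 1.37 and 2.05 in E14, 3.5 and 1.99 in WT and 3.25 and 2.65 in DKO. Total H3K27me3 was -0.78 and -1.53 in E14, -0.81 and -0.53 in WT and -1.11 and -0.82 in DKO. It was below Cdkn2b in every line without overlap. K4-K27 was 0.48 and 2.32 in E14, 3.24 and 2.43 in WT and 3.57 and 2.88 in DKO. K27-K4 was 1.68 and 3.13 in E14, 1.58 and 1.61 in WT and 1.03 and 1.43 in DKO. Its IgG-IgG values were -0.52 in E14 and 0.48 in WT clone 57.

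**Figure D1:**
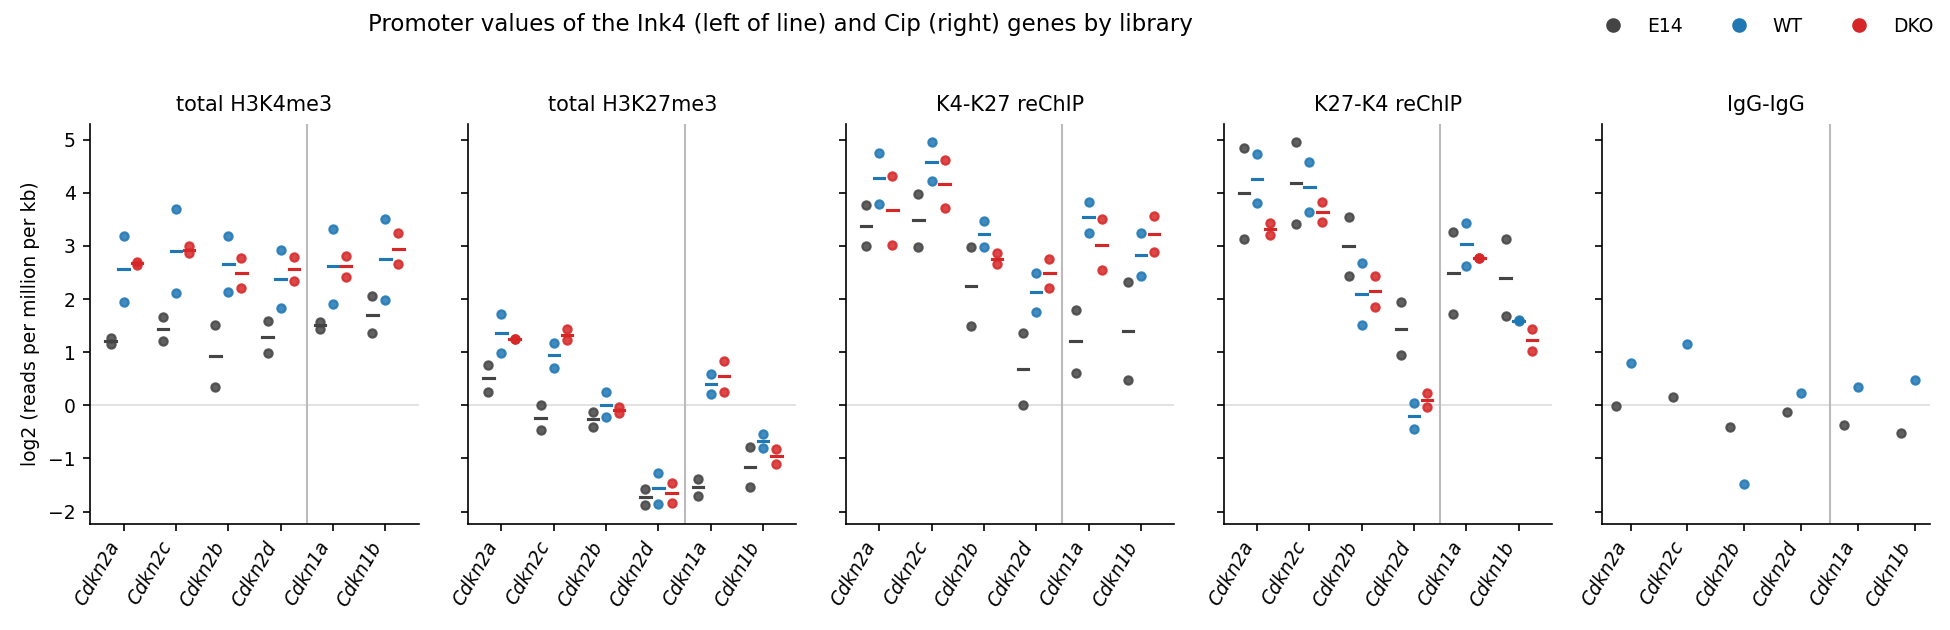
Log2 value (RPM per kb) of each library (points) and mean of each line (bars) at the 6 genes, by ChIP, with Ink4 genes left of the grey line and Cip genes right of it. In these regions of the E14 total H3K4me3 table, gene means of total H3K4me3 span 0.46 to 0.78, while total H3K27me3 and K27-K4 are highest at Cdkn2a and Cdkn2c and lowest at Cdkn2d, whose K27-K4 values in the clones lie between -0.45 and 0.22.

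In E14, replicate 2 was above replicate 1 at all 6 genes in both reChIPs, and WT clone 57 was above clone 58 at all 6 genes in total H3K4me3, so that the spread within a group was shared among the genes. The order of genes within a library is free of such a shift. In E14 K27-K4 the order was Cdkn2c, Cdkn2a, Cdkn2b, Cdkn1a, Cdkn1b and Cdkn2d, and it held in both libraries. The smallest step within a library was 0.041, between Cdkn1a and Cdkn1b, and the values of all neighbours overlapped between replicates. In WT K27-K4, the order was Cdkn2a, Cdkn2c, Cdkn1a, Cdkn2b, Cdkn1b and Cdkn2d. It held in both clones except between Cdkn2b and Cdkn1b, which differed by -0.097 in one and 1.10 in the other. Values pooled over the clones did not overlap below Cdkn2c (1.07 between means) and above Cdkn2d (1.80). In DKO K27-K4 all 5 neighbouring pairs were separated in both ways, the gap above Cdkn2d being 1.14.

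The order changed in part in the regions of the E14 K27-K4 table. In DKO, Cdkn1a came between Cdkn2c and Cdkn2a in both reChIPs, above Cdkn2a with differences of 0.080 in K4-K27 and 0.067 in K27-K4 that had both signs among the clones. In K4-K27, Cdkn2b was lowest in WT and DKO, below Cdkn1b by 0.80 and 1.08 without overlap, and Cdkn2d lay above both. Cdkn2c was highest here in both reChIPs of every line, also in WT K27-K4, where Cdkn2a led in the other regions. Cdkn2d stayed lowest in K27-K4.

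The design sets the Ink4 genes beside the Cip genes. In the regions of the E14 total H3K4me3 table, total H3K27me3 was higher at the Ink4 than at the Cip genes, by 0.92 ± 0.10 in E14, 0.32 ± 0.37 in WT and 0.42 ± 0.23 in DKO (mean log2 difference ± SD, n = 2 each). The same difference in K4-K27 was 1.15 ± 0.26 in E14, 0.37 ± 0.02 in WT and 0.15 ± 0.06 in DKO. In K27-K4 it was 0.71 ± 0.11, 0.25 ± 0.17 and 0.30 ± 0.30. All 18 library values of these ChIPs were above 0 in these regions. In total H3K4me3 it was -0.39 ± 0.09, -0.05 ± 0.16 and -0.12 ± 0.13, and in IgG-IgG 0.34 in E14 and -0.24 in WT clone 57. In the E14 reChIP regions the E14 IgG-IgG library differed by -0.10. Genes of a family are not replicates, and no test was made over them.

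In the clones the sign of the family difference turned with the regions used. In the regions of each line's own K4-K27 table, K4-K27 was lower at the Ink4 genes, by -0.23 in WT and -0.30 in DKO, and K27-K4 was at -0.075 and -0.19. Total H3K27me3 was at -0.19 in WT and 0.039 in DKO there. In the regions of the WT K27-K4 table, where Cdkn1a was the only Cip gene listed, the WT difference in K27-K4 was -0.62. In the E14 reChIP regions the K27-K4 difference stayed positive in the mean of each line, at 0.46 in E14, 0.14 in WT and 0.073 in DKO. The background was also negative there. The IgG-IgG library of WT clone 57 differed by -1.18 in the WT K4-K27 table, -1.06 in the DKO K4-K27 table and -0.72 in the WT K27-K4 table. In the clones' own total H3K4me3 regions it differed by -0.73 in WT and -0.75 in DKO. Yet K4-K27 was at 0.46 and 0.29 there, and K27-K4 at 0.52 and 0.44. After subtracting the IgG-IgG value, K4-K27 in the K4-K27 regions was 0.95 in WT and 0.76 in DKO, K27-K4 1.11 and 0.86 and total H3K27me3 0.99 and 1.09, while total H3K4me3 also turned positive (0.69 and 0.49). In the WT K27-K4 regions K27-K4 was then 0.096 in WT, and in the DKO K27-K4 regions, without Cdkn2d, K4-K27 remained at -0.20 in DKO. With the second Cdkn2d region in place of the first, the mean reChIP differences of the clone lines lay between -0.074 and -0.0086. Single clone libraries ran from -0.18 to 0.15. The means in E14 were 0.83 in K4-K27 and 0.43 in K27-K4. The direction in the clones thus depended on the regions and on the subtraction of a single IgG-IgG library, and the part of this background in the differences was not tested.

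The family means hid a split among the Ink4 genes in the regions of the E14 total H3K4me3 table. Cdkn2a, Cdkn2b and Cdkn2c together exceeded the Cip genes in total H3K27me3 by 0.65 to 1.41 and in K27-K4 by 0.74 to 1.49 over the 6 libraries of each. Cdkn2d lay below the Cip genes in the same libraries, by -0.27 to -1.69 in total H3K27me3 and by -0.76 to -2.96 in K27-K4. The Cip genes differed too: Cdkn1a minus Cdkn1b in total H3K27me3 was -0.61 and -0.17 in E14, 1.41 and 0.74 in WT and 1.36 and 1.66 in DKO. In K27-K4 this difference was 0.04 and 0.13 in E14 and 1.02 to 1.86 in the clones. In these ChIPs Cdkn1a was above Cdkn1b in all 4 clones. In K4-K27 the difference was 0.12 and -0.52 in E14, 0.59 and 0.82 in WT and -0.058 and -0.34 in DKO, and in total H3K4me3 it was -0.43 to -0.077 in the clones.

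**Figure D2:**
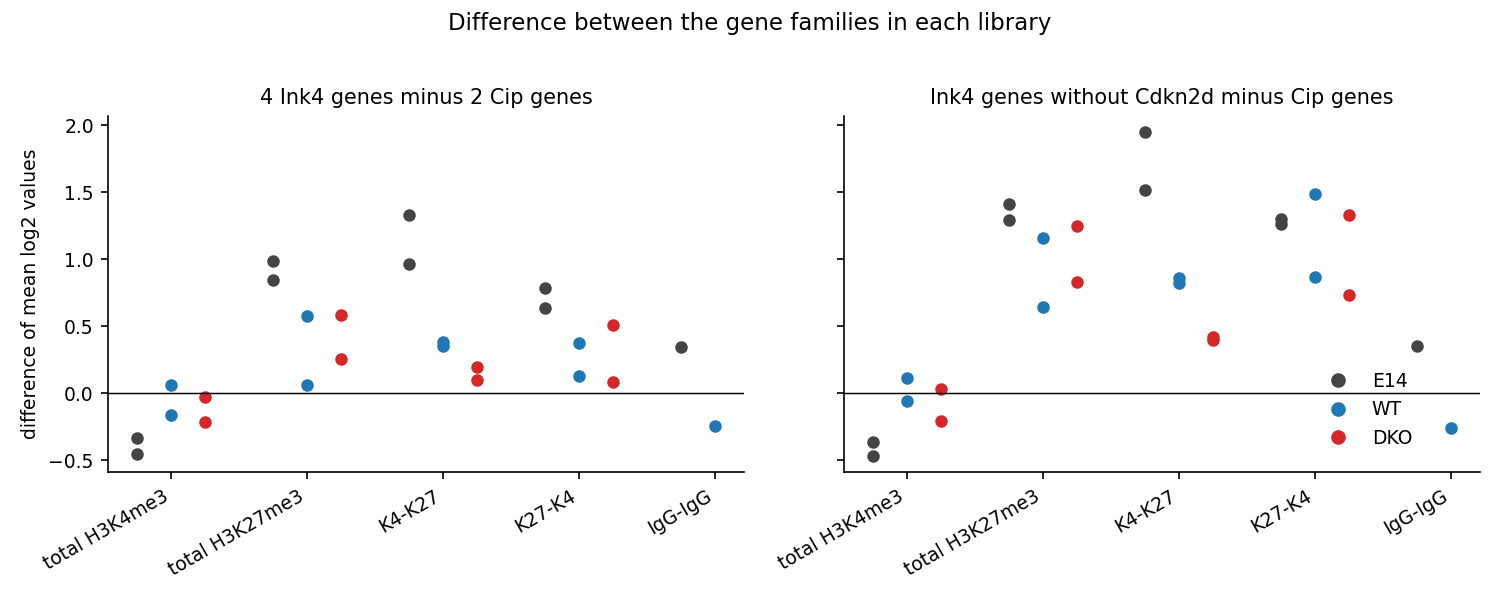
Difference between the mean log2 values of the Ink4 and the Cip genes in each library (points), in the regions of the E14 total H3K4me3 table, for all 4 Ink4 genes at left and without Cdkn2d at right. Without Cdkn2d the total H3K27me3 and K27-K4 differences lie between 0.65 and 1.49 in the 12 libraries, while in total H3K4me3 they lie between -0.21 and 0.12 in the clones.

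At Cdkn2a the pair of start sites could be compared within libraries. The start of p16Ink4a, which binds CDK4 and CDK6, lies downstream at -12.4 kb from that of p19Arf, and each had a region in the E14 total H3K4me3 table. Total H3K4me3 at p16Ink4a was 1.28 and 0.79 in E14, 2.03 and 1.09 in WT and 2.09 and 1.75 in DKO. The p19Arf start was higher by 1.16 and 0.86 in the WT clones and by 0.61 and 0.90 in the DKO clones, and by -0.02 and 0.37 in E14. Total H3K27me3 differed between the starts by -0.18 to 0.40 over the 6 libraries, with both signs. K4-K27 was higher at p19Arf in all 6 libraries, by 0.49 to 1.63, and K27-K4 by 0.19 to 1.16. In the wider regions of the E14 K27-K4 table the K27-K4 difference was smaller, with means of 0.15 in E14, 0.58 in WT and 0.034 in DKO, and fell to -0.057 in E14 replicate 1 and -0.13 in DKO clone 53. The IgG-IgG libraries were also higher at p19Arf, by 0.56 in E14 and 1.22 in WT clone 57, and the part of this background in the reChIP differences was not tested.

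**Figure D3:**
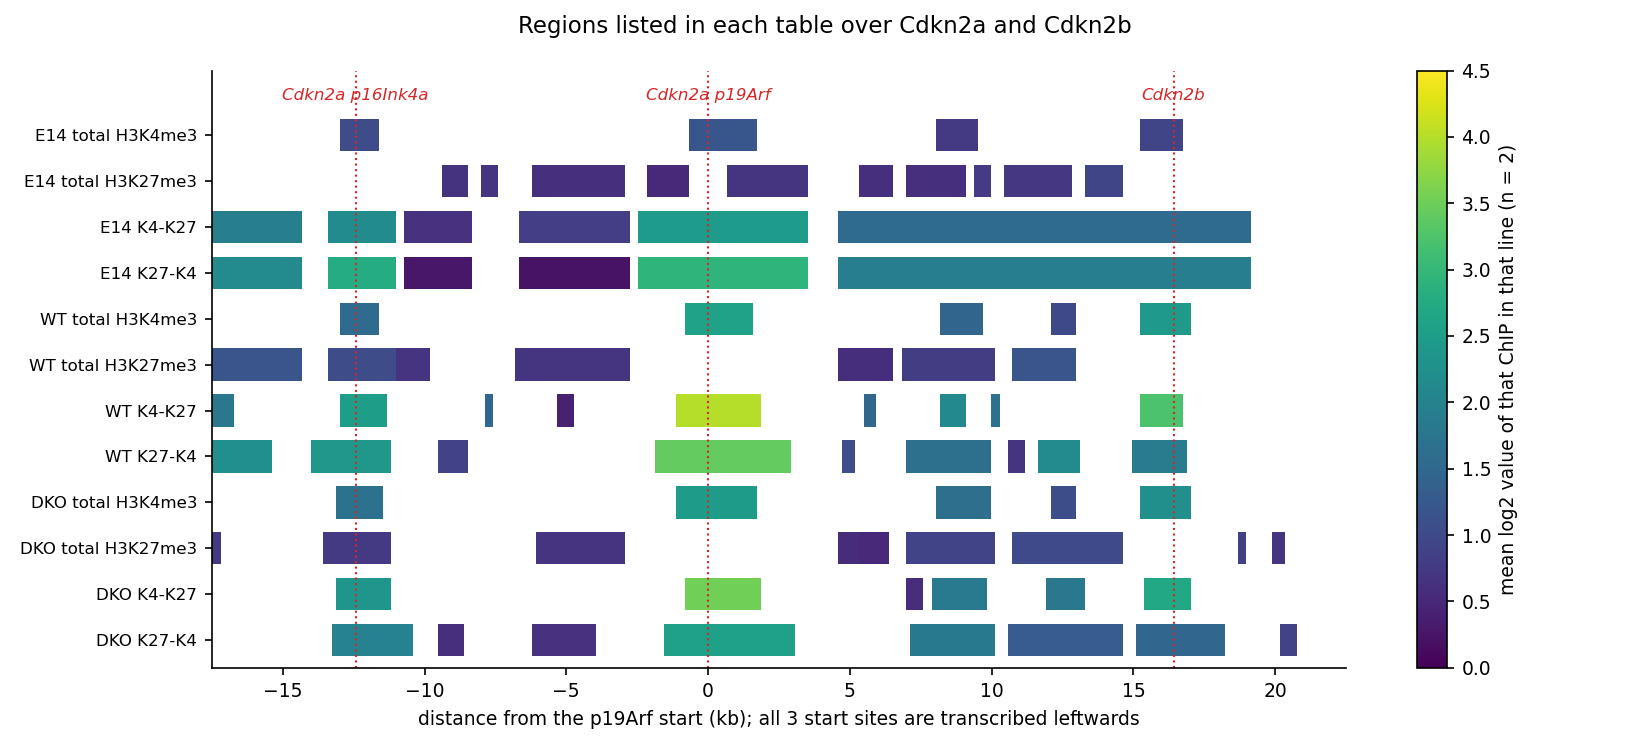
Regions listed in each of the 12 tables around Cdkn2a and Cdkn2b, by distance from the p19Arf start in kb, coloured by the mean log2 value of that ChIP in that line (n = 2). The red dotted lines mark the start sites, and the E14 reChIP tables hold a single region of 14550 bp over Cdkn2b where the E14 total H3K4me3 table holds one of 1500 bp.

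Along the locus, total H3K4me3 regions lay on all 3 start sites in every line, with a further one that began 8.03 kb (E14 and DKO) or 8.18 kb (WT) upstream of p19Arf and another, in WT and DKO and not in E14, that began at 12.1 kb. Total H3K27me3 regions covered the p16Ink4a start in WT and DKO and not in E14, and the Cdkn2b start in no line. No total H3K27me3 region of any line covered the p19Arf start itself. In E14 a pair of H3K27me3 regions stopped 0.67 kb on the gene side and began 0.68 kb on the far side of it. The reChIP regions over p19Arf were 6000 bp wide in E14 and from 2700 bp (K4-K27 in DKO) to 4800 bp (K27-K4 in WT) wide in the clones.

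The balance of the totals was tested in a limma fit of all 26 libraries over the 36235 regions of the E14 K27-K4 table, with a region called at an absolute log2 difference above 1 and a Benjamini-Hochberg adjusted p under 0.05. Total H3K4me3 was called above total H3K27me3 at Cdkn2d, Cdkn1a and Cdkn1b in every line, and at Cdkn2a and Cdkn2b in none. The antibodies differ between the totals, so their values share no common scale and do not give amounts of the marks. The study describes the in-line totals as noisier than the reChIPs. The Cdkn2b region was 14550 bp wide. In these wider regions 3 of 6 genes were called higher in E14, where 31.2% of all regions were, 4 of 6 in WT (36.0%) and 3 of 6 in DKO (32.7%). At Cdkn2d the difference was 2.61 and 3.54 in the E14 replicates, 4.43 and 3.86 in the WT clones and 4.48 and 3.78 in the DKO clones. The limma estimates were 3.08 (SE 0.53, adjusted p = 0.000191), 4.14 (SE 0.53, adjusted p = 1.66e-06) and 4.13 (SE 0.53, adjusted p = 1.04e-06). At Cdkn1a they were 2.64, 2.02 and 1.88, and at Cdkn1b 1.5, 2.14 and 2.31, with adjusted p of 0.0302 for Cdkn1b in E14 as the highest of the 6. Cdkn2c was called in WT (1.56, SE 0.55, adjusted p = 0.0251) and had 1.14 in E14 (adjusted p = 0.121) and 1.29 in DKO (adjusted p = 0.0682), both of which passed with the culture as a replicate block (adjusted p of 0.0322 and 0.0138 by limma).

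Cdkn2a had -0.17, 0.39 and 0.79, and Cdkn2b -0.55, -0.08 and -0.01 (SE 0.45 to 0.50), so that the values of the totals lay close together. This depended on the region. In the narrower regions of the E14 total H3K4me3 table, Cdkn2b had 1.19 in E14 (adjusted p = 0.0638) and was called in WT (2.65) and DKO (2.57), Cdkn2a was called in DKO (1.43) and Cdkn2c in all 3 lines. Of all 21970 regions of that table, 14910 were called higher in E14, 15190 in WT and 14157 in DKO. Their median differences were 2.25, 2.66 and 2.69. In the H3K27me3 regions beside Cdkn1b the difference turned to -1.32 in E14, -0.77 in WT and -0.93 in DKO, none of them called. Centring each library on its median ended the calls of Cdkn1b in E14 (0.78) and Cdkn2c in WT (0.65) and made Cdkn2b a lower call in E14 (-1.27). Leaving out a culture lowered the number of calls over all regions in each line, and calls at these genes were lost too. Without E14 replicate 2, Cdkn2d (2.61, adjusted p = 0.0542), Cdkn1a (2.43) and Cdkn1b (1.13) lost the call in E14, the last also without replicate 1 (1.87). Without WT clone 57, Cdkn2c (1.03), Cdkn1a (1.52) and Cdkn1b (1.47) lost it, and without DKO clone 43, Cdkn1a (1.41) and Cdkn1b (1.99). Cdkn2d was called in both clone lines with any one clone left out. The difference between DKO and WT in this balance was called at 0 of 6 genes and 0 of 36235 regions (910 with an unadjusted p under 0.05; limma, adjusted p of 1.00 at each gene). That between WT and E14 was likewise called at 0 regions (1252 with an unadjusted p under 0.05; limma).

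Against IgG-IgG, the WT clones, read in the regions of the E14 tables, showed both reChIPs at most of the genes. The background was the pair of IgG-IgG libraries, 1 of which came from E14 and another sequencing batch, and leaving that one out changed no call at the 6 genes. K4-K27 exceeded IgG-IgG at 6 of 6 genes, where 60.4% of 24540 regions were called higher, with differences from 2.07 at Cdkn2d to 3.79 at Cdkn2c (limma, adjusted p of 0.00177 or lower). K27-K4 exceeded it at 4 of 6, where 28.1% of 36235 regions did: Cdkn2a by 3.46 (SE 0.50), Cdkn2c by 3.32 (SE 0.55), Cdkn1a by 2.74 (SE 0.53) and Cdkn2b by 2.26 (SE 0.45), with limma adjusted p from 2.14e-05 to 0.000489. Cdkn1b had 1.25 (SE 0.53, limma adjusted p = 0.0795; 1.51 with adjusted p = 0.0122 with the culture as a replicate block), and Cdkn2d had -0.28 (SE 0.53, adjusted p = 0.749).

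Total H3K4me3 exceeded IgG-IgG at 6 of 6 genes, from 2.18 at Cdkn2a to 3.60 at Cdkn2b, where 75.8% of 21970 regions did. Total H3K27me3 exceeded it at 1 of the 2 genes with a region in the E14 H3K27me3 table, where 36.1% of 21527 did: Cdkn2a had 2.15 (SE 0.62, limma adjusted p = 0.0117) and Cdkn1b 1.13 (adjusted p = 0.121). The median difference of all regions was 2.28 for total H3K4me3, 1.86 for K4-K27, 1.45 for total H3K27me3 and 0.81 for K27-K4, and in total H3K4me3 the median of the 6 genes, 2.48, lay close to the general shift. With each library centred on its median, no gene kept its call in either total, Cdkn2b (0.49), Cdkn2d (0.42) and Cdkn1b (0.52) lost theirs in K4-K27, and all 4 calls in K27-K4 stayed. Without WT clone 57, Cdkn2a (1.56), Cdkn2c (1.47) and Cdkn2d (1.79) were no longer called in total H3K4me3 (limma), nor was Cdkn2a in total H3K27me3 (1.72), which also lost the call without the IgG-IgG library of WT clone 57 (1.88).

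The reChIPs differed at Cdkn2d in the clones, by the order in which the antibodies were used. In the regions of the E14 K27-K4 table, its K4-K27 values were 2.23 and 1.55 in the WT clones and 2.59 and 2.02 in the DKO clones. Its K27-K4 values were -0.75 and -0.17 in WT and -0.21 and 0.04 in DKO. K27-K4 was thus lower in all 4 clones. The limma estimate was -2.35 in WT (SE 0.53, adjusted p = 0.00286) and -2.39 in DKO (SE 0.53, adjusted p = 0.00307), and 1 of 6 genes was called lower in each, where 20.8% and 19.4% of all regions were. Without WT clone 57 the estimate was -1.72 and without DKO clone 43 -1.98 (limma, adjusted p of 0.200 and 0.203), and neither was called. Cdkn1b had -0.92 in WT and -1.42 in DKO (SE 0.53, limma adjusted p = 0.0534; adjusted p = 0.0156 with the culture as a replicate block). The other 4 genes had -0.55 to 0.12, the highest being Cdkn2b in WT, read in a region of 14550 bp. In its narrower region of the E14 total H3K4me3 table, Cdkn2b had K27-K4 means of 2.10 in WT and 2.14 in DKO. Its K4-K27 means there were higher, at 3.23 and 2.76, so that the order at Cdkn2b depended on the region.

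In E14 the difference was from 0.35 at Cdkn2b to 1.36 at Cdkn1a, with a median of 0.67 over the 6 genes and 0.70 over all regions, so that its sign was that of the general shift. With each library centred on its median, Cdkn2a (-0.17), Cdkn2b (-0.30) and Cdkn2c (-0.078) were below 0. By limma 0 of 6 genes and 0 of 36235 regions were called (3501 with an unadjusted p under 0.05). The difference between WT and E14 was -3.12 at Cdkn2d (SE 0.75, limma adjusted p = 0.00441), 1 of 6 genes called lower where 23.9% of regions were, and -2.48 without WT clone 57 (adjusted p = 0.0939). Between DKO and E14, 2 of 6 genes were called lower where 22.2% of regions were, Cdkn2d (-3.15, SE 0.75, limma adjusted p = 0.0046) and Cdkn1b (-2.30, SE 0.74, limma adjusted p = 0.0262). Without DKO clone 43 Cdkn2d was at -2.74 (limma adjusted p = 0.0999), and Cdkn1b was no longer called without clone 43 (-2.03), clone 53 (-2.58) or E14 replicate 1 (-2.07). With the culture as a replicate block, Cdkn1a was called in both (-1.83 in WT and -1.62 in DKO, limma adjusted p of 0.0239 and 0.0494), as was Cdkn1b in WT (-1.81, limma adjusted p = 0.0253). Sequencing batches and lines coincide here, and the WT and the DKO comparison share the E14 libraries.

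**Figure D4:**
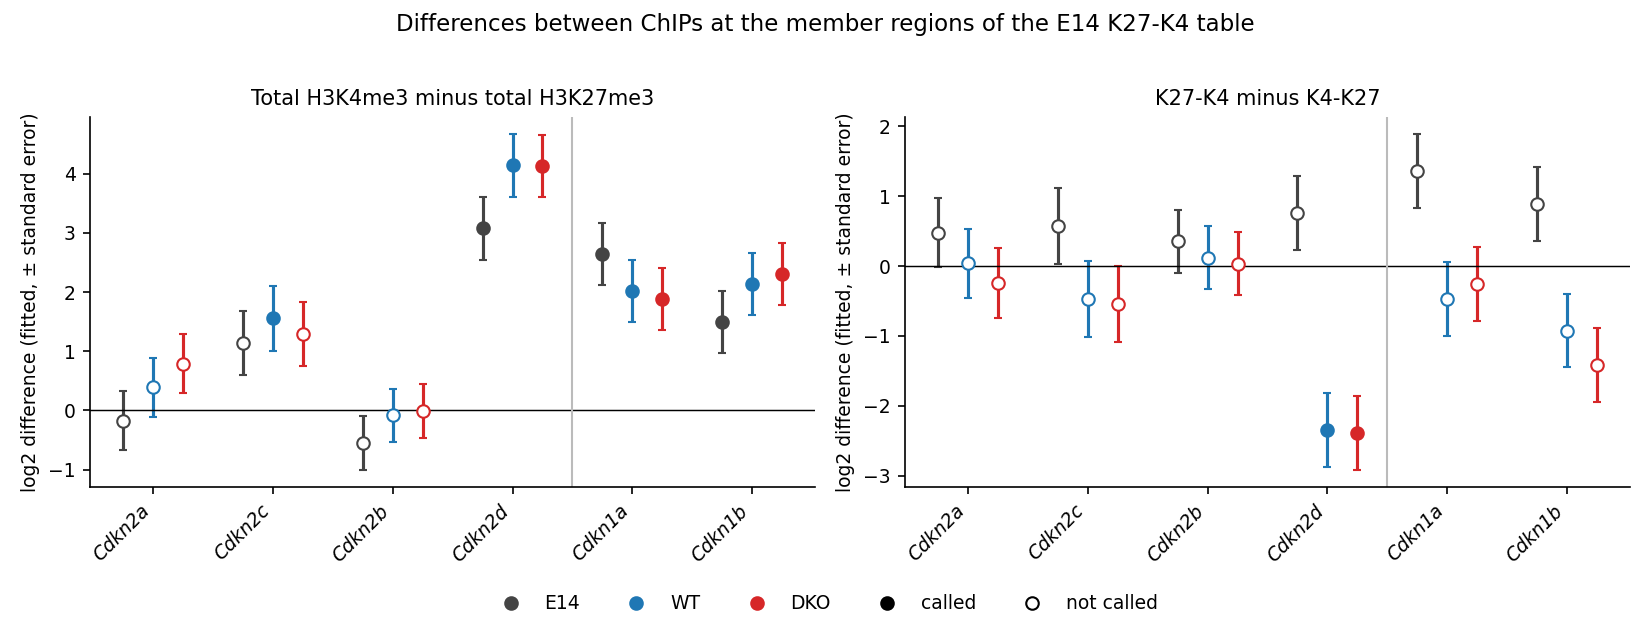
Fitted log2 differences with their standard errors (limma) at the 6 genes in E14, WT and DKO, for total H3K4me3 minus total H3K27me3 at left and K27-K4 minus K4-K27 at right. Filled points were called: Cdkn2d has the largest difference of the totals in every line (3.08 to 4.14) and is the only gene called in the right panel (-2.35 and -2.39).

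Loss of DPPA2 and DPPA4 gave no called difference at any of the 6 genes. In limma fits of the 4 clones for each ChIP, over all regions of the WT and DKO tables, 0 of 6 genes were called in K4-K27, K27-K4 and total H3K4me3 and 0 of 2 in total H3K27me3, where 1.19%, 2.26%, 2.72% and 2.75% of regions were called in either direction. No gene had an adjusted p under 0.336. By voom weights on the reads, 0 of 6 were called as well.

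The largest difference was at Cdkn2a in K27-K4. Its values in the WT region (chr4:89292751-89297550) were 3.81 and 3.02 in WT clones 57 and 58 and 2.63 and 2.38 in DKO clones 43 and 53. Both DKO clones were lower than both WT clones. The limma estimate was -0.91 (SE 0.53, adjusted p = 0.336). Without WT clone 58, the lower WT clone here, it was -1.31. That fit set WT clone 57 alone against the DKO clones, and the median over all regions moved from -0.15 to -0.31. The other genes had -0.44 to 0.02 in the WT regions, and Cdkn1b, listed only in the DKO table, had -0.37 (SE 0.42).

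In K4-K27, Cdkn2d was 2.83 and 2.17 in the WT clones and 3.61 and 2.85 in the DKO clones, a limma difference of 0.72 (SE 0.61, adjusted p = 0.66). The lower DKO value lay just above the higher WT value. Cdkn2a had -0.63 (SE 0.66), Cdkn1a -0.49, Cdkn2b -0.47, Cdkn2c -0.37 and Cdkn1b 0.27. In total H3K4me3 the differences were -0.20 to 0.20 with SE of 0.81 to 0.90, and WT clone 57 lay above clone 58 at all 6 genes. In total H3K27me3, Cdkn2a at the p16Ink4a start had -0.26 (SE 0.41) and Cdkn2c 0.21 (SE 0.41). With these errors a difference of the size of the threshold could not be told from none in total H3K4me3, and the missed threshold does not show that WT and DKO were alike.

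**Figure D5:**
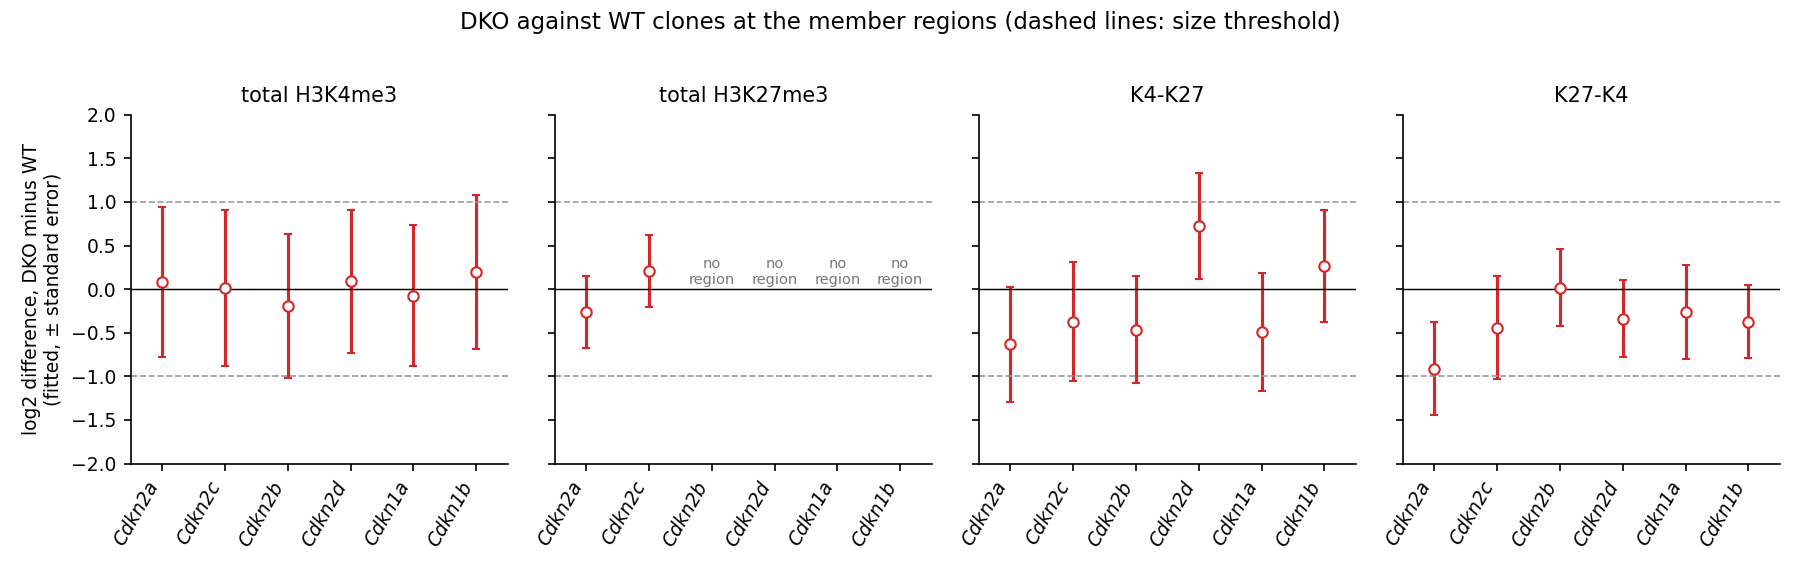
Fitted log2 differences of DKO minus WT clones with their standard errors (limma) at the 6 genes, by ChIP, in the regions of the WT tables (of the DKO table for Cdkn1b in K27-K4); dashed lines mark the size threshold of 1. All points lie between -0.91 and 0.72 and none was called; 4 genes have no total H3K27me3 region in either clone table.

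The 23 other genes of the pathway (cyclins, CDKs, RB and E2F family members and regulators of p53) were read in the same fits. Their balance of the totals was called toward H3K4me3 in 20 of 23 in E14 and in 21 of 23 in each clone line, where 31.2% of all regions were in E14, 36.0% in WT and 32.7% in DKO. In WT the highest were E2f3 (5.15), an activating E2F, and Mdm2 (5.07), and the lowest E2f6 (-0.43), a repressive E2F, and Ccnd2 (-0.16), which encodes cyclin D2. K27-K4 exceeded IgG-IgG in WT at 6 of 23, close to the 28.1% of all regions, with a median of 0.22 where the inhibitor genes had 2.50 and all regions 0.81. K4-K27 exceeded it at 22 of 22 genes with a region, where 60.4% of all regions did. K27-K4 was below K4-K27 in 16 of 23 in WT and 15 in DKO, where 20.8% and 19.4% of all regions were, and 5 of 6 embryonic stem cell markers were lower as well in each, and Cdkn2d was 1 of many promoters at which K27-K4 was the lower reChIP. DKO and WT differed at 0 of 23 in K4-K27, 0 of 10 in K27-K4, 0 of 22 in total H3K4me3 and 0 of 2 in total H3K27me3 (limma), where 1.19%, 2.26%, 2.72% and 2.75% of regions were called.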

How the data were processed

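H3K4me3, H3K27me3, both sequential orders and IgG-IgG were sequenced from 26 libraries, in 12 groups of 2 and 2 of 1. The authors trimmed reads (Trim Galore 0.6.6), aligned them to mm10, GRCm38.p6 (BWA 0.7.13, SAMtools 1.9), and marked duplicates (Picard 2.6.0). All listed regions lie on a grid of 150 bp, which is not the bin size of the EPIC2 calls in the study's methods, and the submitters' notes also name MACS2: how the listed regions were made is not given in the sources used here. The deposited values are log2 read counts per region that the authors corrected for library size and region length in SeqMonk. All values came back as whole reads (tolerance 0.01), except that regions without reads hold a fixed floor value. This floor held 87292 of 338442 values in the IgG-IgG library of WT clone 57 and 52559 in its K4-K27 library. Unlike the study's count model, limma 3.58.1 (R 4.3.3; trend, robust, Benjamini-Hochberg) was fitted over all regions, because the tables hold log2 values. A difference was called above 1 in absolute log2 and under 0.05 in adjusted p. The fits compared DKO with WT in the 4 clones of each ChIP over the WT and DKO tables, and ChIPs in all libraries over E14 tables. They were also run on simulated data with planted shifts far larger than the threshold, which cannot show detection near it. Regions of the WT and DKO tables that overlap without being identical were tested separately. Python 3.11.15 prepared the tables.

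The members and lists were chosen with earlier results of these data known. All 6 genes were named in every comparison, and of the other 23 genes only the extremes of a comparison. Clone libraries share a clone and E14 libraries a replicate number and batch. Correlations of deviations between ChIPs of the same number ran from -0.17 to 0.48 in E14, -0.14 to 0.30 in WT and -0.08 to 0.22 in DKO over 36235 regions, and the culture was added as a block in an alternative fit. The other alternatives were centring libraries, other region tables, voom weights on the reads, a filter on low regions, a fit without trend and robust estimation and leaving out each library. For the totals against each other and the antibody order, both libraries of a culture were left out together. The comparison of the antibody orders, its difference between lines, the balance in WT against E14, the Cdkn2a start sites and the Ink4 mean without Cdkn2d were added after seeing the data. The tables hold 32 columns of no sample of this series, which were not used. Counting precision is set by the reads given in the text, which cover counting error only.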

Additional observations from a re-analysis of the deposited data

Results flagged for a closer look

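The difference between K27-K4 and K4-K27 differed between lines. At Cdkn2d it was 1.02 and 0.51 in the E14 replicates, -2.99 and -1.72 in the WT clones and -2.80 and -1.98 in the DKO clones, a difference of -3.12 between WT and E14 and of -3.15 between DKO and E14 (limma, adjusted p of 0.00441 and 0.0046). At Cdkn1b the difference was -2.30 between DKO and E14 (limma, adjusted p = 0.0262).

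Other differences went in opposite directions in every culture of the lines compared and did not pass limma's threshold. For the antibody order these were Cdkn2c (-1.04 between WT and E14 and -1.12 between DKO and E14, adjusted p of 0.393 and 0.385), Cdkn1a (-1.83 between WT and E14, adjusted p = 0.0803) and Cdkn1b (-1.81 between WT and E14, adjusted p = 0.0814). The last 2 passed with the culture as a replicate block (limma, adjusted p of 0.0239 and 0.0253). For total H3K4me3 minus total H3K27me3 it was Cdkn2a, with 0.57 between WT and E14 (adjusted p of 1.00) and 0.96 between DKO and E14, the last of which was not tested. The lines and the sequencing batches cannot be told apart, and the comparisons share the E14 libraries.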

How the results depend on the processing

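Regions called in DKO against WT numbered 643 in K4-K27, 1341 in K27-K4, 1745 in total H3K4me3 and 1468 in total H3K27me3. In the regions of the E14 tables they were 973, 2230, 457 and 210. K4-K27 gave 7715 without the variance trend and robust estimation, total H3K4me3 3899 after centring and 336 without the lowest 0.25 of regions, and total H3K27me3 0 after centring, 314 without those low regions and 427 with voom weights. Cdkn2b in K4-K27 was 0.13 and Cdkn2d in K27-K4 0.38 in the E14 regions, and Cdkn2c in total H3K4me3 -0.019 after centring. Centring left 9646 regions of K4-K27, 1245 of total H3K4me3 and 22 of total H3K27me3 called against IgG-IgG, with Cdkn1b at -0.10 in total H3K27me3. The cause of these shifts was not tested.

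For total H3K4me3 minus total H3K27me3, the E14 H3K27me3 regions gave 0 calls in E14, 1909 in WT and 1636 in DKO, with Cdkn1b at -1.32, -0.77 and -0.93 and Cdkn2a at -1.30 in WT and -0.53 in DKO. The E14 H3K4me3 regions gave Cdkn2a 0.70 in E14 and Cdkn2b 1.19, 2.65 and 2.57 in E14, WT and DKO. Centring gave Cdkn2a -0.51 in WT. For K27-K4 minus K4-K27, centring gave Cdkn2a -0.17, Cdkn2b -0.30 and Cdkn2c -0.078 in E14 and Cdkn2a 0.040 and Cdkn1a 0.027 in DKO, and the H3K4me3 regions Cdkn2a -0.010 and Cdkn2b -1.13 in WT and Cdkn2b -0.62 in DKO. Between lines, centring gave Cdkn2a 0.56 and Cdkn2b 0.77 for WT against E14, and 0.21 and 0.61 for DKO against E14.

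The Ink4 minus Cip difference in the E14 reChIP regions was -0.52 in total H3K4me3, 0.68 in total H3K27me3 and 0.46 in K27-K4 in E14, -0.36 in total H3K4me3 and 0.11 in K4-K27 in WT, and -0.37 in total H3K4me3, 0.18 in total H3K27me3 and 0.025 in K4-K27 in DKO. After subtracting IgG-IgG it was -0.74, 0.58, 0.81 and 0.37 in E14 (total H3K4me3, total H3K27me3, K4-K27, K27-K4), 0.19 in total H3K4me3, 0.61 in K4-K27 and 0.50 in K27-K4 in WT, and 0.12, 0.66 and 0.39 in total H3K4me3, total H3K27me3 and K4-K27 in DKO. Without Cdkn2d, total H3K27me3, K4-K27 and K27-K4 gave 1.35, 1.74 and 1.28 in E14, 0.90, 0.84 and 1.18 in WT and 1.04, 0.41 and 1.03 in DKO. The WT H3K4me3 regions gave 0.46 in K4-K27 and 0.52 in K27-K4 in WT, and the DKO ones 0.29 in K4-K27 in DKO. The regions of the clones' own reChIP tables turned the sign in places. With the ChIPs in the sequence given above for E14, the WT K4-K27 regions gave -0.49, -0.19, -0.23 and -0.075 in WT and the DKO K4-K27 regions -0.56, 0.039, -0.30 and -0.19 in DKO. The WT K27-K4 regions, without Cdkn1b, gave -0.30, -0.35, -0.38 and -0.62 in WT, and the DKO K27-K4 regions, without Cdkn2d, -1.12 in total H3K4me3, 0.62 in total H3K27me3, -0.61 in K4-K27 and 0.14 in K27-K4 in DKO. After subtracting IgG-IgG, chosen after seeing the data, the same regions gave 0.69, 0.99, 0.95 and 1.11 (WT K4-K27), 0.49, 1.09, 0.76 and 0.86 (DKO K4-K27), 0.42, 0.37, 0.34 and 0.096 (WT K27-K4) and -0.71, 1.03, -0.20 and 0.55 (DKO K27-K4). The second Cdkn2d region of the E14 H3K4me3 table, also chosen after seeing the data, gave -0.43, 0.75, 0.83 and 0.43 in E14, -0.16, -0.39, -0.012 and -0.074 in WT and -0.30, 0.29, -0.032 and -0.0086 in DKO. K27-K4 in the E14 reChIP regions was 0.14 in WT and 0.073 in DKO. The E14 H3K27me3 regions set Cdkn2a against Cdkn1b alone and gave -0.59, 0.079, 0.11 and -0.25 in E14, -0.22, 0.31, 0.14 and 0.97 in WT and -0.16, -0.56, -0.44 and -0.081 in DKO. The clones' H3K27me3 tables list no Cip gene and gave no value.

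Leaving out 1 library at a time moved the calls of DKO against WT to 243 to 558 in K4-K27, 482 to 8630 in K27-K4, 74 to 6018 in total H3K4me3 and 133 to 650 in total H3K27me3. Those of the totals against each other went to 1722 to 8204 in E14, 8010 to 12534 in WT and 8302 to 10746 in DKO. Against IgG-IgG they went to 5803 to 10469 in K27-K4, 8712 to 17094 in total H3K4me3 and 950 to 7300 in total H3K27me3. For the antibody order they went to 0 to 2 in E14, 399 to 7804 in WT, 154 to 5941 in DKO, 139 to 9239 for WT against E14 and 0 to 8463 for DKO against E14. Among the genes, DKO minus WT in K4-K27 ranged from -1.27 to 0.0036 at Cdkn2a, -0.81 to 0.064 at Cdkn2c, -1.01 to 0.021 at Cdkn1a and -0.16 to 0.69 at Cdkn1b. In K27-K4 it ranged from -0.50 to 0.53 at Cdkn2b, -0.89 to 0.0076 at Cdkn2c and -0.67 to 0.15 at Cdkn1a. In total H3K4me3 it ranged from -0.51 to 0.68 at Cdkn2a, -0.70 to 0.31 at Cdkn2b, -0.77 to 0.80 at Cdkn2c, -0.40 to 0.58 at Cdkn2d, -0.74 to 0.59 at Cdkn1a and -0.55 to 0.95 at Cdkn1b, and in total H3K27me3 from -0.59 to 0.060 at Cdkn2a. The balance of the totals at Cdkn2b in DKO ranged from -0.077 to 0.049 and K27-K4 over IgG-IgG at Cdkn2d from -0.58 to 0.0091. The antibody order ranged at Cdkn2b from -0.012 to 0.72 in E14 and -0.17 to 0.40 in WT, in DKO from -0.73 to 0.25 at Cdkn2a, -0.12 to 0.19 at Cdkn2b and -0.69 to 0.18 at Cdkn1a, for WT against E14 from -0.91 to 0.023 at Cdkn2a and -0.60 to 0.13 at Cdkn2b, and for DKO against E14 from -0.68 to 0.047 at Cdkn2b. For the totals against each other and for the antibody order, the pair of libraries of a culture was left out at once. Those ranges are thus not of 1 library. A lone library was assumed to vary like the other groups.

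With the culture as a replicate block, calls of the totals against each other numbered 12731 in E14, 15151 in WT and 14431 in DKO, and those of the antibody order 0, 10219 and 9458. Beside the calls given above for Cdkn2c, Cdkn1a and Cdkn1b, the block changed no other call at the 6 genes. No paired analysis was possible for DKO against WT because these clones share no replicate number. Of 57 regions, 56 were found with a narrower promoter window (48 identical) and 61 with a wider one (51 identical). With 2 libraries a group and down to 17 reads in a region, differences near the size threshold were often not detectable.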

Other observations

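Over the 26 libraries, the log2 values of Cdkn2a and Cdkn2c in the E14 K27-K4 regions had a Pearson correlation of 0.949 and those of Cdkn1b and Cdkn2d one of 0.920, while Cdkn2a and Cdkn2d had 0.408 and Cdkn2b and Cdkn2d 0.215. Among 15113 promoter regions the closest to Cdkn2a were Igdcc3 (0.988) and the one shared by Sall3 and Gm27239 (0.988), with a median of 0.521 over all. The closest to Cdkn2c were the promoter shared by Phlpp1 and Gm20753 (0.993) and that of Myb (0.992), with a median of 0.659. The closest to Cdkn2d was the promoter shared by Golga2 and Swi5 (0.993), with a median of 0.855. Cdkn2b came closest to Gabrb2 (0.968), Cdkn1a to Slc6a8 and Gm32261 (0.985) and Cdkn1b to Tbc1d2 (0.990). The points share libraries and depth, so these values are a description.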
